A study of Mus musculus with 71 samples.

Results

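The genes examined here are 10 transcription factors that direct the development and function of T cells and other lymphocytes: Tbx21, Eomes, Runx3, Tcf7, Lef1, Id2, Id3, Zbtb16, Ikzf2 and Batf3. They were chosen by name, as lineage factors, from the 24475 gene identifiers of the γδ IEL count table. That choice was made with earlier results of these data known. Each factor was followed by gut segment and genotype in sorted cells and cell by cell in the matching single-cell tables. γδ IELs are T cells with a γδ T-cell receptor that sit between the epithelial cells of the gut. They were sorted as CD45+ TCRβ- TCRγδ+ cells from the duodenum, jejunum and ileum of C57BL/6 mice that were wild type (WT) or Btnl2-KO, a whole-body null allele in which LacZ replaces Btnl2, a butyrophilin-like gene. The bulk series held 22 libraries from mice 10 weeks old by the labels, with 4 WT libraries in each segment and 3, 4 and 3 Btnl2-KO libraries in duodenum, jejunum and ileum. Each library pooled 2 mice, which were cohoused littermates. The single-cell series held 6 libraries, 1 for each segment and genotype, from mice 8 to 10 weeks old. Per the methods, the single-cell input was pooled from the sorted samples, although the ages on the labels of the bulk and single-cell libraries differ. The labels name no treatment.

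T-bet (Tbx21, chr11:97098007-97115331) and eomesodermin (Eomes, chr9:118478186-118486132) are T-box factors that switch on cytotoxic and interferon genes, and T-bet acts with interleukin-15 signals in the maintenance of CD8αα IELs. Runx3 (chr4:135120645-135177990) keeps the CD8 programme on and promotes the expression of CD103, the integrin that holds IELs in the epithelium. TCF-1 (Tcf7, chr11:52246527-52283383) and LEF-1 (Lef1, chr3:131110297-131224357) are related HMG-box factors at the end of the Wnt pathway, and in peripheral T cells they mark naive, memory and self-renewing states. Id2 (chr12:25093799-25096092) and Id3 (chr4:136143822-136145392) lack a DNA-binding domain and hold E proteins away from DNA. Id2 is typical of effector lymphocytes, and Id3 is induced by T-cell receptor signals and needed for normal γδ T-cell development. PLZF (Zbtb16, chr9:48651797-48836225) drives innate-like T cells, Helios (Ikzf2, chr1:69531207-69687351) is an Ikaros-family zinc finger protein found in agonist-selected T cells, and Batf3 (chr1:191098414-191108943) is an AP-1 factor best known from cross-presenting dendritic cells. Positions are those of GRCm38.p6, with start and end of the annotated gene.

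Promoter sequences of 5 of the factors, the Id pair and 3 that were found with or apart from Tcf7 in single cells, are shown here as RefSeq gives them on GRCm38.p6, from 250 bases before to 50 bases after the transcription start, 5′ to 3′ on the gene's strand. Capitals mark letters of the E-box CANNTG, to which E proteins bind, or of the TCF/LEF core CTTTG, on either strand.
Lef1, chr3:131110047-131110346, plus strand: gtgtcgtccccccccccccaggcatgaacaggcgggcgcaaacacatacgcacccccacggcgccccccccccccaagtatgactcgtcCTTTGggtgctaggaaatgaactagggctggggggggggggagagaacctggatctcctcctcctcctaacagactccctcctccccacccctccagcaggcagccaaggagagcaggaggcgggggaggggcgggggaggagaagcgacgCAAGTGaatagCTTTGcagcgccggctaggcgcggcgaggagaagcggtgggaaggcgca
Id3, chr4:136143572-136143871, plus strand: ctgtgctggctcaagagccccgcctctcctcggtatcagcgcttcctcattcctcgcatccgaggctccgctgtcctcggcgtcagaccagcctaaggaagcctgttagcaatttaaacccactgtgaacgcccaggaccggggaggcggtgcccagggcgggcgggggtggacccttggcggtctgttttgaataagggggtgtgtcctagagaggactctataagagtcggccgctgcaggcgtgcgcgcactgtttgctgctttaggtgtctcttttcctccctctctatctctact
Batf3, chr1:191098164-191098463, plus strand: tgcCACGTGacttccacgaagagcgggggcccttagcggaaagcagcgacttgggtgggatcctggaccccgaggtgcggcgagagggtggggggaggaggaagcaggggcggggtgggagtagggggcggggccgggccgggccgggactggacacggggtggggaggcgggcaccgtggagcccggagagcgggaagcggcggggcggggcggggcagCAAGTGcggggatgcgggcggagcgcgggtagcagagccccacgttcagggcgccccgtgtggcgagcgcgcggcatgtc
Tbx21, chr11:97115282-97115581, minus strand: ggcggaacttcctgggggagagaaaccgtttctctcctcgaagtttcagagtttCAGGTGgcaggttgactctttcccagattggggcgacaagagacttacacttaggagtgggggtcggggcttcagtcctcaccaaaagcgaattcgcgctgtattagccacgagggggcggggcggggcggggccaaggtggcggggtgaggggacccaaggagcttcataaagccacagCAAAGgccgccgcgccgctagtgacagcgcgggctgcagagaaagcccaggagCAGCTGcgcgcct
Id2, chr12:25096043-25096342, minus strand: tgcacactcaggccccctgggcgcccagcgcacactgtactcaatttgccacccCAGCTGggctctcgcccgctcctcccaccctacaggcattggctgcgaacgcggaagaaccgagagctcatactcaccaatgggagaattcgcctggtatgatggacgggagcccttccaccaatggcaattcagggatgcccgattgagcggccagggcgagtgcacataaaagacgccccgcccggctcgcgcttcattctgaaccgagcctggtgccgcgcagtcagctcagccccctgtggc
The Lef1 window held a TCF/LEF core at 161 bases before the start and another at base 1 after it, and an E-box at 10 bases before the start. The Id3 window held neither motif, whereas the Id2 window held an E-box at 196 bases before the start, the Batf3 window E-boxes at 247 and 30 bases before it, and the Tbx21 window E-boxes 196 bases before and 37 bases after the start with a TCF/LEF core 16 bases before it. These are common letters: of 27025 promoter windows of the same length, 72.1% held the E-box and 54.0% the TCF/LEF core. A RUNX motif (TGTGGT, in 16.9% of windows) was present in the Runx3 window alone among the 8 members with a window, and the T-box core TCACAC (14.4%) and the AP-1 motif TGANTCA (7.92%) were in none of the 8. RefSeq gave no window for Zbtb16 or Ikzf2. The window of Tcf7 lies inside its annotated gene and is not shown.

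Bulk libraries held 13444958 to 30029485 counts assigned to genes. Btnl2 itself was at 0 to 0.123 CPM (counts scaled to the size of the library) in the Btnl2-KO libraries and at 2.47 to 9.89 CPM in the WT libraries, as the labels say. The share of counts from the mitochondrial ribosomal RNAs mt-Rnr1 and mt-Rnr2 was not even across groups. It was 0.255 to 0.315% in the WT jejunum, below all WT duodenum (0.524 to 2.11%) and WT ileum libraries (0.517 to 1.02%), and it spanned 0.249 to 1.47% over the Btnl2-KO libraries. Epithelial RNA was present in every library, where the summed level of 12 epithelial markers ran from 5.67 to 70.7% (median 33.3%) of that in epithelial cell libraries from another table of the same study. Pools named jejunum KO 2 and ileum KO 2 stood apart from their groups, the first by its low epithelial signal and the second by its mitochondrial rRNA share of 1.47%. Jejunum KO 3 also had a high share, 1.36%, where the other jejunal KO pools had 0.285 to 0.610%. Ileum KO 3 had the lowest share of any pool, 0.249%. Correlation with the group mean was 0.872 for jejunum KO 2, 0.904 for jejunum KO 4, 0.910 for ileum KO 2 and 0.920 for ileum KO 3. It was 0.948 or more in all other pools. The single-cell tables held 23994 barcodes, of which 23569 were kept. Between 99.6 and 99.9% of these had a UMI of a Cd3 gene. Median UMIs per cell were 4877 to 5468, LacZ UMIs occurred in the 3 KO libraries and in no WT library, and 366 barcodes occurred in 2 libraries and 1 in 3.

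Per kilobase of exon, Id2 was the most abundant of the factors in bulk γδ IELs and Eomes the least. The median level over the 22 libraries was 207 CPM per kb for Id2 (157 to 369), 52.9 for Tbx21 (34.4 to 82.4) and 50.6 for Id3 (29.3 to 84.9). Runx3 stood at 29.8 CPM per kb (21.7 to 46.4), Tcf7 at 28.5 (14.3 to 64.2) and Ikzf2 at 11.1 (8.37 to 32.1). Batf3 at 2.97 (1.02 to 12.8), Lef1 at 1.07 (0.626 to 1.94), Zbtb16 at 0.660 (0.199 to 1.32) and Eomes at 0.457 (0.201 to 0.814) formed a low group. Of the neighbours in this order, only Id2 and Tbx21 had ranges that did not overlap. Within libraries, Ikzf2 exceeded Batf3 in 22 of 22 and Id3 exceeded Runx3 in 21 of 22, while Tbx21 exceeded Id3 in 13 of 22 and Runx3 exceeded Tcf7 in 12 of 22, so the order within those last pairs was not stable. Some of the factors are also expressed in the epithelium, where group means were 29.5 to 38.1 CPM for Id3, 12.2 to 19.5 CPM for Id2 and 4.85 to 7.55 CPM for Tcf7. At the epithelial share of each γδ IEL library that would amount to 1.67 to 26.9 CPM of Id3 (median 10.6), 1.11 to 10.5 CPM of Id2 and 0.34 to 3.74 CPM of Tcf7. In a bulk sample, fewer cells of a type and less RNA per cell cannot be told apart. The order per kilobase also depends on the exon length used. Before that scaling, the bulk medians were 149 CPM for Runx3, 132 for Tbx21, 129 for Ikzf2 and 90.6 for Id3. In single cells, with no length scaling, Runx3 was at 256 to 294 UMI CPM and Ikzf2 at 224 to 264. Tbx21 was at 71.4 to 81.7 there and Id3 at 54.7 to 69.5, both lower. Id2 was highest in cells too, at 327 to 354 UMI CPM. Why these orders differ was not tested.

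The first question was whether loss of Btnl2 altered these factors. It did not move any of them past the thresholds used (edgeR's quasi-likelihood test, Benjamini-Hochberg adjusted p below 0.05 and a change above 1.5-fold). Among the duodenal pools 0 of 10 factors were called, against 0.00789% of the 12680 genes tested. The jejunum gave 0 of 10, against 0.00794% of 12594 genes, and the ileum 0 of 10, against 0% of 12604. At an unadjusted p below 0.05 there were 0, 1 and 3 factors and 263, 805 and 1108 genes in the same order. DESeq2 called 0 factors in each segment, with 221 genes in the ileum, and limma-voom called 2 factors in the ileum among 1207 genes, Tbx21 (log2 0.72, adjusted p = 0.0335) and Id3 (log2 -0.70, adjusted p = 0.0337). The median log2 difference of the 10 factors, KO against WT, was -0.07 for duodenum, 0.12 for jejunum and 0.42 for ileum, beside -0.00035, -0.02 and 0.06 for all genes tested. Without ileum KO 2, a pool that stood apart, the median of the factors in the ileum was 0.03 and that of all genes -0.02.

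Batf3 in the jejunum was the only factor whose genotypes did not overlap within a segment. Its level was 1.64, 2.63, 3.27 and 3.22 CPM in the 4 WT pools and 5.71, 4.02, 9.28 and 5.36 CPM in the 4 KO pools. All KO values lay above all WT values, a separation that 3.32% of all genes tested also showed in one direction or the other. The log2 difference was 1.23 (SE 0.35), with an adjusted p of 0.583 in edgeR's quasi-likelihood test, and it was 1.39 (SE 0.34, adjusted p = 0.248) without jejunum KO 2. It was 0.92 (SE 0.31, adjusted p = 0.9999) without jejunum KO 3, the jejunal KO pool with the highest Batf3 value and mitochondrial rRNA share. The shares were 0.610, 0.285, 1.36 and 0.414% in the jejunal KO pools, the same order as their Batf3 values. In WT jejunum they were 0.255 to 0.315%, so genotype and share differed together in part. The KO to WT ratio of Batf3 in jejunum was 2.34 in bulk and 1.16 in single cells (95% interval of counting error 0.920 to 1.47). In the ileum, Tbx21 was at 157, 122 and 187 CPM in the KO pools and 134, 91.8, 85.5 and 119 in the WT pools, which overlap (log2 0.55, SE 0.22, edgeR adjusted p = 0.539). Runx3 was at 178, 229 and 191 CPM in KO ileum and 185, 138, 116 and 108 in WT ileum, with WT pool 1 inside the KO range (log2 0.57, SE 0.23, edgeR adjusted p = 0.542). Id3 ran the other way, with 79.7, 91.3 and 75.9 CPM in KO ileum and 86.8, 152, 135 and 113 in WT ileum, and again 1 WT pool overlapped the KO pools (log2 -0.54, SE 0.22, edgeR adjusted p = 0.542). Without ileum KO 2 these 3 differences were 0.66, 0.42 and -0.65, with edgeR adjusted p of 0.306, 0.413 and 0.306. Beside these differences, 11 of 12 epithelial markers had lower values in KO than WT ileum (median log2 -1.37, 0 called), and all 11 γδ IEL markers tested had higher ones (median 0.28, 0 called). Their part in the ileal values was not tested.

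**Figure D1:**
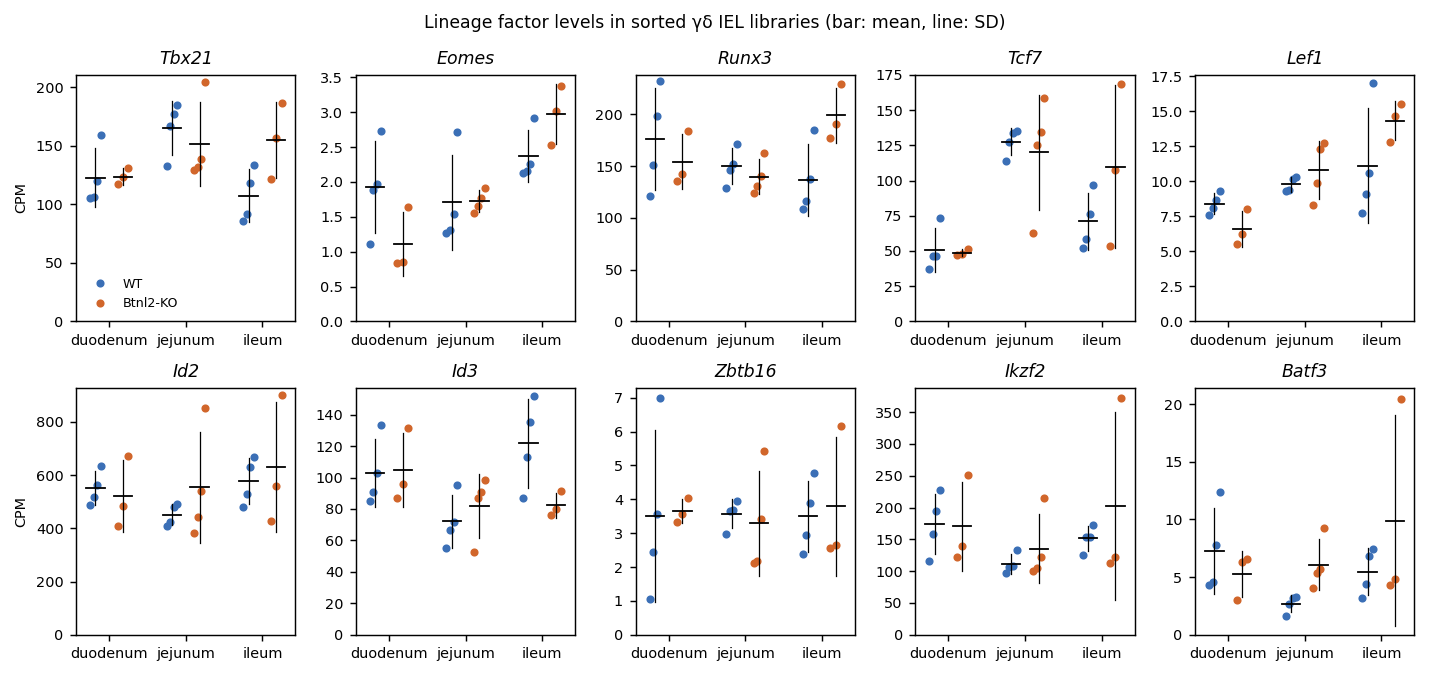
Levels of the 10 factors in the bulk γδ IEL libraries, in CPM on linear axes that start at 0, by segment (x axis) and genotype (WT blue, Btnl2-KO orange). Each point is a pool of mice, the bar is the group mean and the vertical line its SD; Tcf7 in WT jejunum sits at 114 to 135 CPM, above the 37.5 to 73.3 CPM of WT duodenum, while the 2 genotypes overlap in most panels.

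Segments were compared next, first in WT mice, where the jejunum differed from both of its neighbours. Tcf7 was at 135, 128, 114 and 134 CPM in WT jejunum, 37.5, 46.2, 73.3 and 46.2 CPM in WT duodenum, and 76.0, 52.5, 58.5 and 96.9 CPM in WT ileum. All jejunal pools were above all others, and groups without overlap in either direction were found for 35.1% of genes between jejunum and duodenum and 32.9% between ileum and jejunum. The rise over the duodenum was 2.48-fold (log2 1.31, SE 0.18, edgeR adjusted p = 0.00418), and the ileum was lower than the jejunum by a log2 of -0.83 (SE 0.17, edgeR adjusted p = 0.00657). Batf3 had the reverse order, with 1.64 to 3.27 CPM in WT jejunum against 7.74, 4.62, 4.35 and 12.3 CPM in duodenum and 3.16, 4.44, 7.47 and 6.83 CPM in ileum. It fell from duodenum to jejunum (log2 -1.44, SE 0.38, edgeR adjusted p = 0.0154), without overlap, and was higher again in ileum (log2 1.04, SE 0.34, edgeR adjusted p = 0.0391). Ikzf2 was lower in jejunum than duodenum, at 109, 97.3, 133 and 106 CPM against 194, 159, 117 and 228 CPM (log2 -0.66, SE 0.20, edgeR adjusted p = 0.0237). Tbx21 was lower in ileum than jejunum, at 134, 91.8, 85.5 and 119 CPM against 167, 133, 185 and 177 CPM (log2 -0.61, SE 0.17, edgeR adjusted p = 0.0190). Id3 was higher in ileum than jejunum, at 86.8, 152, 135 and 113 CPM against 55.2, 95.3, 66.7 and 71.8 CPM (log2 0.77, SE 0.20, edgeR adjusted p = 0.0149). The groups overlapped in these last 3 comparisons and in that of Batf3 between ileum and jejunum.

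In all, 3 of 10 factors were called between WT jejunum and duodenum, where 23.3% of 12629 genes were called, and 4 of 10 between WT ileum and jejunum, where 21.7% of 12643 genes were. Shares of this size do not set the factors apart from other genes. Several of these calls were lost when 1 library was left out. Tcf7 kept its call in both comparisons whichever library was left out, and Batf3 did between jejunum and duodenum. Ikzf2 lost its call there without WT duodenum pool 1 or 4 or WT jejunum pool 1, 2 or 4 (edgeR adjusted p 0.0526 to 0.0686), while Id3 gained one without WT duodenum pool 3 or WT jejunum pool 2. Between ileum and jejunum, Batf3 kept its call only without WT ileum pool 1, and its edgeR adjusted p was 0.0545 to 0.120 without any other library. Tbx21 lost its call there without WT ileum pool 2 or 3 or WT jejunum pool 3 or 4 (log2 -0.51 to -0.59), and Id3 without WT ileum pool 2 (edgeR adjusted p = 0.0592). Hence 1 to 4 factors were called between ileum and jejunum with 1 library left out. Between WT ileum and duodenum 0 of 10 factors were called, against 2.16% of 12535 genes, and 0 had an unadjusted p below 0.05 by edgeR's quasi-likelihood test or were called by DESeq2 or limma-voom. Tcf7 differed there by a log2 of 0.49 (SE 0.23, adjusted p = 0.520).

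The segment differences ran beside the mitochondrial rRNA share. Within groups, that is after each group's mean was taken off, log2 Tcf7 fell with the log2 share of mitochondrial rRNA over the 22 libraries (Pearson's r = -0.93, Spearman's rho = -0.83, permutation p adjusted over the 10 factors 0.00055 and 0.00735), and r was -0.89 without the 2 libraries with the most extreme share. Tbx21 fell with it as well (r = -0.81, rho = -0.85, permutation p adjusted 0.00055 and 0.0004, r = -0.78 without 2 libraries). Ikzf2 rose with it (r = 0.77, rho = 0.70, permutation p adjusted 0.0156 and 0.0179, r = 0.65 without 2 libraries), as did Id2 (r = 0.74, rho = 0.64, permutation p adjusted 0.0156 and 0.0344, r = 0.62 without 2). Batf3 rose with it by Pearson's r alone (r = 0.66, rho = 0.56, permutation p adjusted 0.0371 and 0.0606, r = 0.48 without 2). Id3 had positive coefficients that did not pass (r = 0.46, rho = 0.48, permutation p adjusted 0.0603 and 0.0606, r = 0.47 without 2). Runx3 showed the weakest relation (r = 0.15, rho = 0.15, permutation p adjusted 0.556 and 0.567, r = 0.06 without 2). The WT jejunum pools had the lowest share of all WT pools, with no overlap, so segment and mitochondrial rRNA share cannot be told apart in the WT comparisons. With that share as a covariate, an alternative chosen after seeing the data, 0 factors and 0 genes were called by edgeR in either jejunal comparison (237 and 375 genes at an unadjusted p below 0.05), and the log2 difference of Tcf7 was 0.46 between jejunum and duodenum and 0.12 between ileum and jejunum.

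**Figure D2:**
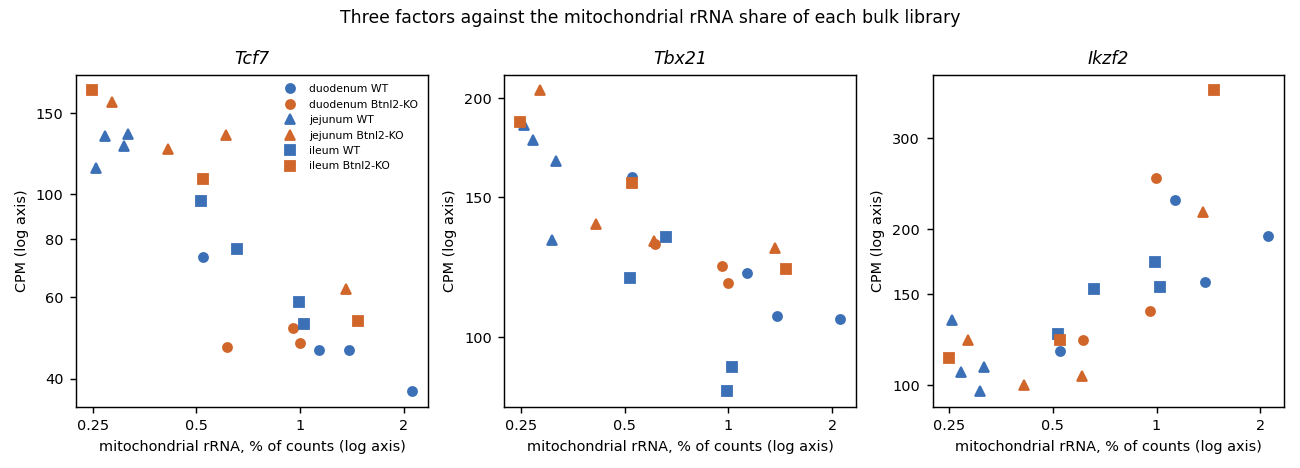
CPM of Tcf7, Tbx21 and Ikzf2 (y axes, log scale) against the mitochondrial rRNA share of the same bulk library in percent of counts (x axes, log scale); each point is a library, with colour for genotype and shape for segment. Tcf7 and Tbx21 go down and Ikzf2 goes up with the share, and the 4 WT jejunum libraries (blue triangles) lie at 0.255 to 0.315%.

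In Btnl2-KO mice 0 of 10 factors were called in each segment comparison by edgeR's quasi-likelihood test, against 0.505% of 12477 genes for ileum and duodenum, 0% of 12711 for jejunum and duodenum and 0% of 12579 for ileum and jejunum. At an unadjusted p below 0.05 there were 3, 2 and 1 factors, and 1215, 1323 and 152 genes. DESeq2 called Lef1 in the first, Tcf7 in the second (log2 1.29, adjusted p = 0.00824) and 0 factors in the third, and limma-voom called 2, 0 and 0. Over all genes DESeq2 called 468, 93 and 3, and limma-voom 672, 0 and 0. Tcf7 was nonetheless lower in every duodenal pool than in any distal one, at 46.8, 47.8 and 51.5 CPM in KO duodenum, 134, 158, 62.6 and 125 in KO jejunum and 108, 53.3 and 169 in KO ileum. The log2 differences from the duodenum were 1.30 (SE 0.29, edgeR adjusted p = 0.406) for jejunum and 1.17 (SE 0.35, edgeR adjusted p = 0.247) for ileum. The lowest jejunal and ileal values, 62.6 and 53.3 CPM, came from pools whose mitochondrial rRNA shares were 1.36 and 1.47%. Without the second of these, a pool that stands apart, Tcf7 was called between KO ileum and duodenum (log2 1.501, edgeR adjusted p = 0.00929). Without jejunum KO 3, the first of them, the difference between KO jejunum and duodenum was 1.501 (edgeR adjusted p = 0.0612). Lef1 had the same arrangement, at 5.50, 6.23 and 8.05 CPM in KO duodenum, 12.3, 12.7, 8.30 and 9.88 in jejunum and 14.7, 15.5 and 12.8 in ileum (ileum against duodenum log2 1.14, SE 0.29, edgeR adjusted p = 0.166). Eomes, at 1.64, 0.847 and 0.836 CPM in KO duodenum and 2.53, 3.01 and 3.38 in KO ileum, did not overlap either (log2 1.43, SE 0.49, edgeR adjusted p = 0.344). Between KO ileum and duodenum, 15.9% of all genes tested had groups that did not overlap, and between KO jejunum and duodenum 13.7% did. Epithelial markers had lower values in KO ileum than duodenum for 11 of 12 genes (median log2 -1.15, 1 called), and γδ IEL markers had higher values for 11 of 11 (median 0.40, 0 called). Between KO jejunum and duodenum, 11 of 12 epithelial markers were lower in value (median -0.86) and 10 of 11 γδ IEL markers higher (0.41). Their part in the values of Tcf7, Lef1 and Eomes was not tested. Whether segment differences themselves depended on genotype was tested with interaction terms: 0 of 10 factors and 0 of 13360 genes were called for either segment, 3 factors and 765 genes had an unadjusted p below 0.05 for the ileum and 1 factor and 647 genes for the jejunum. DESeq2 called 0 factors and 2 genes for each segment, and limma-voom 0 of either.

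Genes tied to the factors were counted from named lists. Of 10 genes tied to TCF-1 and LEF-1, such as homing receptors of naive and memory T cells, 9 were tested between WT jejunum and duodenum. Of these 5 rose, among them the homing receptors Ccr9 (log2 0.79), Ccr7 (1.44) and S1pr1 (1.31) and the receptor Slamf6 (1.23), and 1 fell, the chemokine Xcl1 (log2 -1.26), with 10.5% of all genes called higher and 12.7% lower. The median of the 9 was 0.79. Of 12 tested genes tied to T-box factors, perforin (Prf1, log2 0.75) rose and the chemokines Xcl1 and Ccl5 (log2 -0.67) fell, with a median of -0.27. In the list of E proteins and other Id genes, Id1 fell by 1.09 on the log2 scale from duodenum to jejunum and was higher by 2.10 in ileum than jejunum. Of 34 other lineage factors tested between jejunum and duodenum, 7 rose (Ets1, Ikzf3, Nr4a1, Satb1, Prdm1, Stat4 and Stat5b, log2 0.62 to 0.89) and 2 fell (Maf, log2 -1.77, and Zbtb7b, log2 -1.28). Xcl1 is on both of the first lists. Between WT ileum and jejunum 0 of the TCF-1 and LEF-1 genes rose and 1 fell (Ccr9, log2 -0.65), where 10.8% of all genes were called higher and 10.9% lower. Of the T-box genes, interferon-γ (Ifng, log2 0.81) rose while Il2rb (-0.96) and Prf1 (-0.68) fell. Of 35 other lineage factors tested there, 2 rose and 7 fell. Ccr9, Prf1 and the other genes called between WT segments are subject to the same difference in mitochondrial rRNA share as the factors. Epithelial markers moved too, with 1 of 12 higher and 2 lower in WT jejunum than duodenum and 5 higher and 1 lower in WT ileum than jejunum, and their part in these results was not tested.

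In single cells, Runx3, Id2 and Ikzf2 were seen in most cells and the other factors in fewer. Runx3 was seen in 69.6 to 74.5% of cells by library, Id2 in 67.9 to 73.6%, Ikzf2 in 62.5 to 67.7% and Tbx21 in 29.1 to 33.9%. Tcf7 was seen in 16.1 to 23.4% and Id3 in 13.01 to 16.5%. Lef1 was seen in 3.63 to 5.05% of cells, Batf3 in 1.89 to 3.55%, Eomes in 0.716 to 1.46% and Zbtb16 in 0.781 to 1.27%. The sort left no other cell type in numbers that would give a background, so genes of other cells are given beside the factors. The epithelial gene Lgals4 had a UMI in 1.85 to 3.72% of the same cells, and the B-cell gene Cd79a in 0.0511 to 0.108%. The shares of Eomes and Zbtb16 lay below the Lgals4 level and that of Batf3 within it. The lowest Lef1 share, 3.63%, also lay inside the Lgals4 range, so Lef1 is not wholly clear of it. The share of an epithelial gene cannot set the background of these factors, which were low in epithelial cell libraries. Group means there were 0 to 0.0182 CPM for Batf3, 0.0380 to 0.127 for Eomes, 0.0342 to 0.346 for Zbtb16 and 0.0445 to 0.219 for Lef1. Neither Eomes, Zbtb16 nor Batf3 is read as expression from its share alone. How the UMIs of these factors fell over cells is given further on. With 1 library a group there is no test between groups, and the intervals that follow cover counting error alone.

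Tcf7 made up 55.7 CPM of the UMIs in duodenum WT (95% Poisson interval 52.6 to 58.9), 60.7 in jejunum WT and 79.7 in ileum WT, and 54.2, 77.7 and 79.9 in the KO libraries in the same order. The share of cells with a Tcf7 UMI went from 16.8 and 16.1% in WT and KO duodenum to 21.9 and 23.4% in WT and KO ileum. The ileum exceeded the duodenum 1.43-fold in WT (95% interval 1.33 to 1.54) and 1.47-fold in KO (1.37 to 1.58). The jejunum was near the duodenum in WT (1.09-fold, 1.004 to 1.18) and near the ileum in KO, where it was 1.28 times the WT jejunum (1.19 to 1.38). In WT, bulk and single cells therefore placed the jejunum differently: ileum against jejunum was a log2 of -0.83 for Tcf7 in bulk and 0.39 in cells. Tbx21 was -0.61 in bulk and -0.11 in cells for that pair of segments. Ikzf2 took opposite signs, at -0.66 in bulk and 0.10 in cells for WT jejunum against duodenum and 0.46 and -0.16 for WT ileum against jejunum. Tbx21 between KO and WT ileum was 0.55 in bulk and -0.06 in cells. Tcf7 between KO and WT jejunum also took opposite signs, at -0.06 in bulk and 0.36 in cells.

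Batf3 and Id3 had a jejunal minimum in both kinds of data in WT. Id3 was at 64.4, 54.9 and 69.5 UMI CPM in WT duodenum, jejunum and ileum, and the ileum was 1.27 times the jejunum (95% interval 1.17 to 1.37). In KO it did not have that minimum, at 54.7, 65.5 and 61.4. Batf3 was at 11.4, 7.04 and 13.3 UMI CPM in WT duodenum, jejunum and ileum and 13.6, 8.17 and 13.4 in KO. The jejunum was at 0.615 of the duodenum in WT (95% interval 0.495 to 0.761) and 0.601 in KO (0.493 to 0.731), and the ileum was 1.89 times the jejunum in WT (1.53 to 2.34) and 1.64 times in KO (1.36 to 1.98). In bulk KO pools, where the mitochondrial rRNA share varied within groups, jejunum against duodenum was a log2 of 0.20 for Batf3. Lef1 in KO jejunum, at 13.8 UMI CPM, exceeded WT jejunum, at 9.50, by 1.45-fold (1.20 to 1.75), and Id3 did so by 1.19-fold (1.10 to 1.29). In bulk, KO against WT jejunum was a log2 of 0.18 for Lef1 and 0.23 for Id3, and neither was called (edgeR adjusted p = 0.720 and 0.742). In single cells the KO to WT ratio of Id3 was 0.849 in duodenum and 0.884 in ileum, so it changed side between segments. Eomes was read from 30 to 85 UMIs a library, and its ileum to duodenum ratio was 1.77 in WT (1.13 to 2.82) and 2.01 in KO (1.32 to 3.14). Runx3 stayed within 256 to 294 UMI CPM, Id2 within 327 to 354 and Ikzf2 within 224 to 264 over the 6 libraries.

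**Figure D3:**
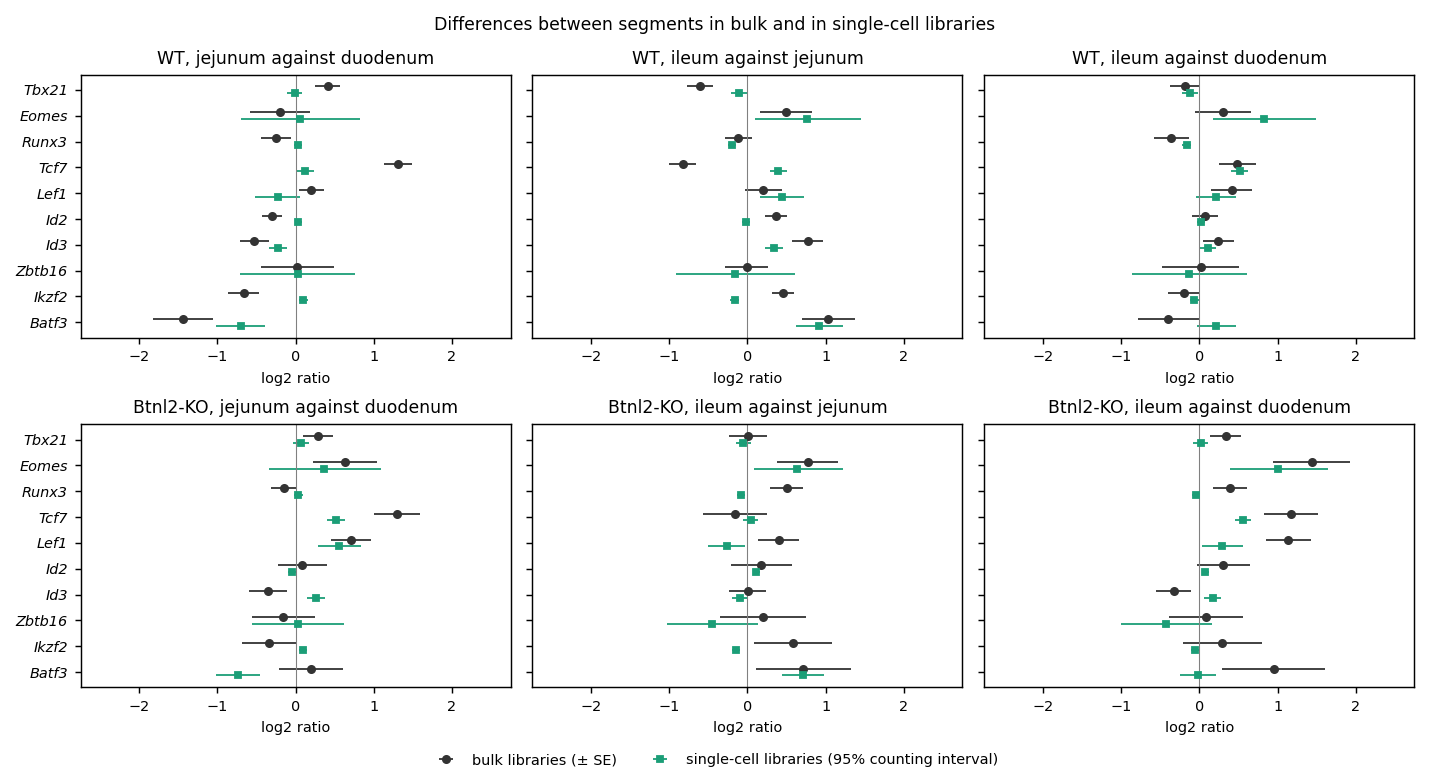
Log2 ratio between segments (x axes) for each factor (y axes) in WT (upper row) and Btnl2-KO mice (lower row), in bulk libraries (black circles, line: SE) and in single-cell libraries with 1 library a group (green squares, line: 95% counting interval). For Tcf7 in WT ileum against jejunum the bulk value is -0.83 and the single-cell value 0.39, whereas Batf3 has a positive value in both.

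The factors were not spread evenly over cells. They had been chosen with earlier results of these data known, so the pairs below may partly restate that choice. All cells were thinned to 2905 UMIs, which 22134 reached, and the number of cells with a UMI of both genes of a pair was set against the number expected if the 2 were independent within a library. Among the 32 pairs with at least 5 expected cells in every library, 5 were above expectation in all 6 libraries and 7 below. Tcf7 and Id3 met 3.63 times as often as independence would give (median of 6 libraries, range 2.76 to 3.99), with a phi correlation of 0.283 to 0.378 across cells. Tcf7 and Batf3 met 3.68 times as often (3.09 to 3.89), Lef1 and Id3 2.82 times (1.84 to 3.68) and Tcf7 and Lef1 2.39 times (2.08 to 3.43). Ikzf2 and Batf3 were above by little (1.12, 1.01 to 1.21). Id3 and Batf3 had fewer expected cells in a library than the minimum, but over all libraries 212 cells held both where 49.9 were expected (ratio 4.25, 95% Poisson interval 3.69 to 4.86), and each library was above at 3.55 to 5.47.

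Tbx21 was found less often than expected with each of Tcf7, Lef1, Id3 and Batf3, and Id2 with the first 3 of them. Tbx21 met Tcf7 at 0.667 of the expected number (range 0.579 to 0.840), Lef1 at 0.487 (0.419 to 0.698), Id3 at 0.766 (0.671 to 0.870) and Batf3 at 0.576 (0.381 to 0.937). Id2 met Tcf7 at 0.776 (0.679 to 0.960), Lef1 at 0.729 (0.601 to 0.827) and Id3 at 0.780 (0.694 to 0.902), so the 2 Id genes were found together less often than independence gives. With Batf3, however, Id2 met at 1.10 (0.948 to 1.24), above expectation in 5 of 6 libraries. Runx3 met each of Tcf7, Id3, Batf3, Lef1 and Id2 at medians of 0.998 to 1.02. Cells that held Tcf7, Id3 and Batf3 numbered 12 to 22 a library, where 0.603 to 1.85 were expected, and cells with Tcf7, Lef1 and Id3 numbered 5 to 23 where 1.01 to 2.40 were. Lef1 and Batf3, each tied to Tcf7, met in 9 cells against 12.5 expected, with an interval of the ratio that includes 1 (0.719, 0.329 to 1.37).

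**Figure D4:**
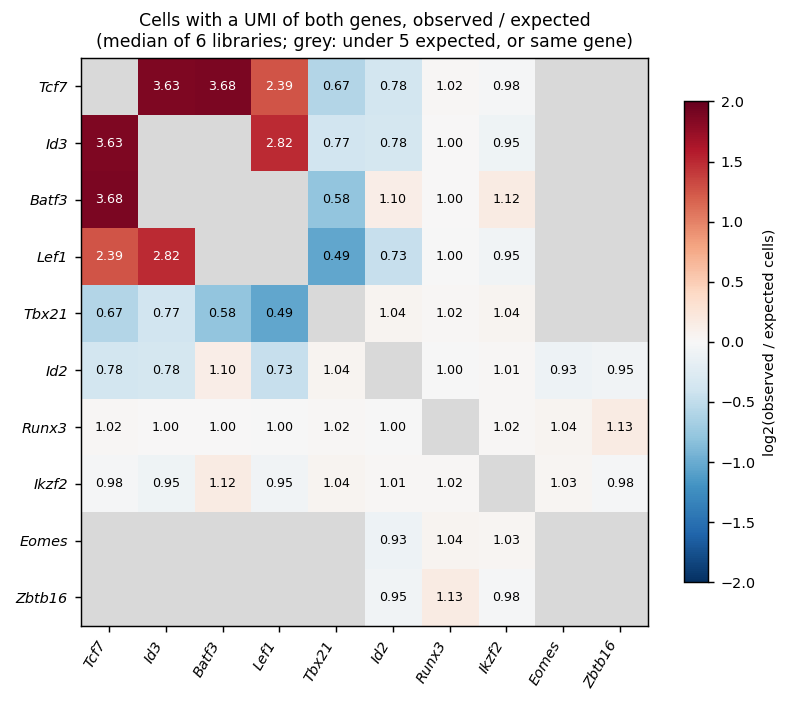
Cells with a UMI of both genes as a multiple of the number expected under independence, as the median over 6 single-cell libraries, for all pairs of the 10 factors (both axes list genes, colour is the log2 of the printed value). Red cells join Tcf7 with Id3 (3.63), Batf3 (3.68) and Lef1 (2.39), blue cells join Tbx21 with Tcf7, Id3, Batf3 and Lef1 and Id2 with Tcf7, Id3 and Lef1, and grey marks pairs with under 5 expected cells in some library.

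Doublets and epithelial RNA were looked at beside these pairs. No doublet caller was run, but without the 5% of cells with the most UMIs the first 4 pairs above expectation kept all 6 libraries above 1 (Tcf7 and Id3 2.82 to 4.10), and Ikzf2 with Batf3 kept 5 of 6. In cells with no UMI of 11 epithelial genes, Tcf7 met Id3 at 2.68 to 3.87 times the expected number, Batf3 at 2.68 to 4.16 times and Lef1 at 1.905 to 3.58 times. The highest Batf3 value, of WT jejunum, rests on 3.61 expected cells, below the minimum used above. Cells with Id3 had an epithelial UMI in 21.2 to 27.1% of cases and cells without it in 20.9 to 26.6%. Gene by gene, Krt8, Krt19, Cldn7, Lgals4, Cdh17 and Phgr1 made up more of the UMIs with Id3 than without it in all 6 libraries. Their median log2 ratios were 1.91 to 2.81. Epcam (median -0.09), Cdh1 (0.02), Fabp2 (0.28), Krt18 (1.04), Krt20 (1.47) and Vil1 (1.96) were higher in some libraries and lower in others. How much of the Id3 signal came from epithelial RNA was not tested.

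Over bulk libraries, Tcf7 did not rise and fall together with Id3 or Batf3. After group means were taken off, Tcf7 and Id3 had an r of -0.43 over the 22 libraries (rho = -0.43, permutation p adjusted over the 45 pairs 0.136 and 0.147, r = -0.42 without 2 libraries), and Tcf7 and Batf3 one of -0.64 (rho = -0.53, permutation p adjusted 0.0800 and 0.134, r = -0.42 without 2). Id3 and Batf3 had an r of 0.58 (rho = 0.62, permutation p adjusted 0.0229 and 0.0341, r = 0.52 without 2). Tbx21 and Tcf7, found together in cells less often than expected, had an r of 0.72 (rho = 0.71, permutation p adjusted 0.0260 and 0.0341, r = 0.65 without 2). The relation of each of these genes to the mitochondrial rRNA share is given above, and the part of that share in the pair correlations was not tested.

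For a factor, 9835 genes were ranked by the ratio of their UMI share in cells with a UMI of the factor to that in cells without. The lowest of the 6 library ratios set the rank, and the highest-ranked genes are named. For Tcf7 they were Batf3, Slamf6, Mob3b, Gm19705 and Tgm2, with a median log2 ratio of 2.61 for Batf3. For Id3 they were Cnn3, Batf3, Slc16a5, Mob3b and Nsg2 (Batf3 2.998). For Batf3 they were the potassium channel Kcnk1 (3.78), Adamtsl2, the cytokine Csf2, Lrig1 and Tcf7, so Tcf7 and Batf3 each stood among the partners of the other. Lef1 was joined by Klf2 (4.98), the factor that keeps homing receptors on, and by Kbtbd11, Eng, Tspan32 and Satb1. Tbx21 was joined by Egr2 (1.17), Ccl3, Ccl4, Egr3 and Egr1, genes induced by receptor signals, and Id2 by Tnfrsf9 (0.99), Slc16a11, Lrrc9, Havcr2 and Cd200r2. For the factors found in most cells the ratios were small, with Gm156 first for Ikzf2 (0.64) and Rasl12 first for Runx3 (0.72).

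Cells with Tcf7 held a UMI of granzymes and perforin less often than cells without it. In thinned cells, granzyme A (Gzma) had a UMI in 15.7 to 21.9% of cells with Tcf7 and 84.9 to 89.2% of cells without, over the 6 libraries. Granzyme B (Gzmb) was at 8.41 to 14.2% against 82.7 to 88.0%, perforin (Prf1) at 2.24 to 4.62% against 16.4 to 21.5%, and the chemokine Ccl4 at 7.85 to 11.7% against 42.8 to 51.9%. For each of these genes the ranges were far apart. Other cytotoxic-cell genes were seen in most cells of both kinds, with the granule protein Nkg7 at 94.1 to 97.1% against 98.7 to 99.3% and the chemokine Ccl5 at 83.7 to 90.02% against 96.8 to 98.6%. The NK receptor chain Klrd1 (42.2 to 49.5% against 78.9 to 81.1%) and the interleukin-2 receptor chain Il2rb (34.0 to 39.1% against 59.1 to 63.7%) were lower as well. Higher in cells with Tcf7 were the chemokine Xcl1 (46.0 to 63.5% against 9.25 to 18.7%), the gut-homing receptor Ccr9 (57.4 to 64.5% against 34.0 to 38.2%), Slamf6 (5.60 to 8.58% against 0.482 to 1.52%) and the xenobiotic sensor Ahr (19.95 to 23.8% against 10.6 to 12.5%). Other lineage factors lay on both sides, with Blimp-1 (Prdm1) at 0.730 to 1.90% against 7.59 to 10.5%, Runx1 at 1.68 to 2.60% against 6.95 to 9.08% and Klf2 at 3.13 to 4.67% against 0.733 to 1.42%. Of 12 T-box genes counted, 10 were lower and Xcl1 was higher in cells with Tcf7 in all 6 libraries. Of 5 TCF-1 and LEF-1 genes counted, from a list of 10, 5 were higher, Xcl1 among them. Both lists were chosen with earlier results of these data known. Over 9836 genes, 15.1% were higher and 13.5% lower in all 6.

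Cells with Id3 or Batf3 also held Gzma less often and Xcl1 more often, while other genes of the preceding comparison differed between them. Gzma was at 16.9 to 20.9% in cells with Id3 against 81.4 to 87.6% without, and at 7.32 to 16.7% in cells with Batf3 against 75.4 to 81.8% without. Xcl1 was at 49.8 to 67.3% with Id3 and 59.8 to 77.9% with Batf3, against 10.1 to 18.99% and 13.8 to 22.7% without. The count of T-box genes lower in all 6 libraries was 10 of 12 for Id3, where 12.3% of all genes were lower, and 10 of 12 for Batf3, where 4.03% were. Of the 5 TCF-1 and LEF-1 genes, 4 were higher in all 6 libraries in cells with Id3, where 14.4% of all genes were higher. In cells with Batf3, 2 were, where 8.10% of all genes were higher. Xcl1 is one of these 5 genes. Ahr was at 17.6 to 22.7% with Id3 against 11.03 to 12.4% without, but at 10.98 to 14.6% with Batf3 against 12.2 to 13.5% without. Klf2 was at 2.65 to 4.72% with Id3 against 0.903 to 1.46%, and at 0 to 2.44% with Batf3 against 1.09 to 1.81%. Cells with Tbx21 went the other way, with 9 of 12 T-box genes higher against 5.05% of all genes, but by smaller margins: Gzma was at 80.1 to 88.2% against 72.6 to 78.9% and Klrd1 at 80.4 to 85.2% against 71.4 to 75.5%. Cells with Lef1 had Gzma in 27.8 to 41.8% against 75.2 to 81.5%, and homing genes more often, with S1pr1 at 8.75 to 15.6% against 0.175 to 0.616% and their regulator Klf2 at 11.6 to 23.1% against 0.715 to 1.29%.

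Cells with Tcf7 were further divided by Lef1 and Batf3, a division made after the data had been seen. The 4 cells with all 3 genes count in both kinds. In the 216 cells with Tcf7 and Lef1, 22 to 44 a library, Klf2 was at 21.1 to 36.7% by library, S1pr1 at 18.2 to 23.7% and Ccr7, a lymph-node homing receptor, at 7.89 to 18.6%. In the 221 cells with Tcf7 and Batf3, 22 to 52 a library, Klf2 was at 0 to 5.41% and Ccr7 in no cell. Klf2 was chosen as the first-ranked partner of Lef1, and Kcnk1 and Csf2 as partners of Batf3, in these same cells, so the values of those 3 genes restate that ranking. The cells with Batf3 had more Xcl1 (59.6 to 86.4% against 9.09 to 31.8%), Kcnk1 (5.41 to 31.8% against 0 to 4.65%) and Id2 (51.4 to 72.7% against 20 to 36.4%) than those with Lef1. Csf2 was at 2.70 to 17.3% in them. Id3 was common in both (40 to 59.5% with Batf3, 22.7 to 53.3% with Lef1), as against 5.30 to 6.81% in the 18412 cells with none of the 3 genes. Gzma was low in both (9.09 to 18.2% and 6.67 to 25.6%) and at 86.9 to 90.6% in the cells with none of the 3. Another 2668 cells had Tcf7 without Lef1 or Batf3. In these, Xcl1 was at 46.2 to 67.1%, Id2 at 37.0 to 55.4%, Kcnk1 at 1.48 to 4.36%, Id3 at 30.9 to 40.9% and Gzma at 16.3 to 24.0%. The ranges of Xcl1 and Id2 in cells with Tcf7 and Batf3 overlapped these, though both genes were higher with Batf3 in each library. Cells with Lef1 or Batf3 but no Tcf7 UMI were not part of this division. Both kinds of cell had the IEL receptor Cd160, at 65.9 to 78.9% with Lef1 and 89.2 to 97.0% with Batf3. Cells with Tcf7 but neither Lef1 nor Batf3 had it at 90.9 to 92.8%, and cells with none of the 3 genes at 56.6 to 64.4%.

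**Figure D5:**
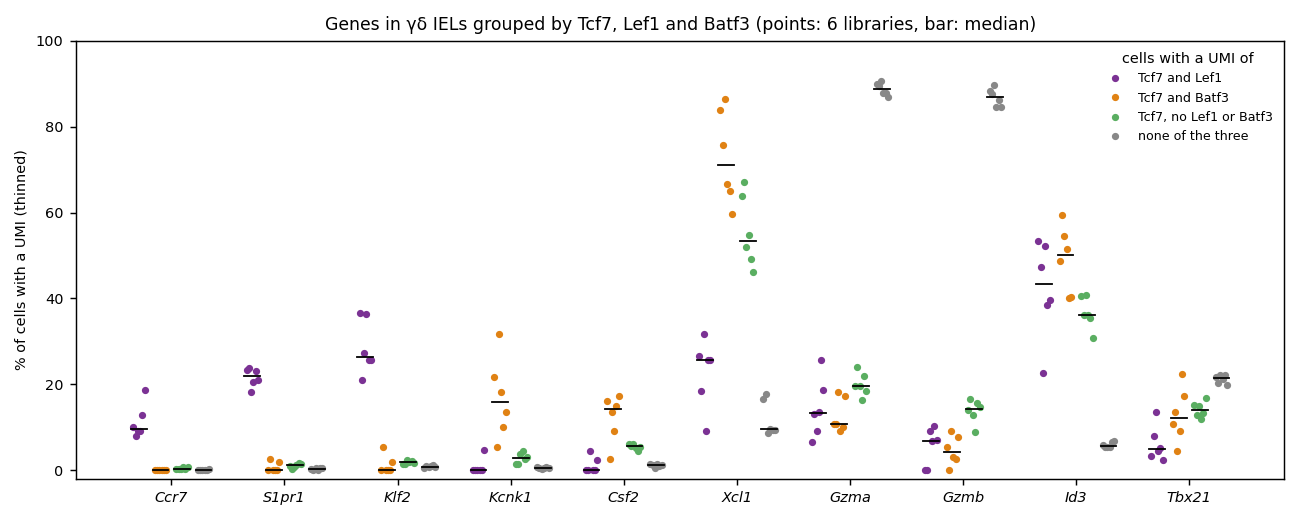
Percent of cells with a UMI of each gene (y axis) for 10 genes (x axis), in cells with Tcf7 and Lef1 (purple), Tcf7 and Batf3 (orange), Tcf7 without either (green) and none of the 3 (grey); each point is 1 of 6 single-cell libraries and the bar is their median. Ccr7, S1pr1 and Klf2 stand out in purple and Kcnk1 in orange. Xcl1 is highest in orange, though its range overlaps green, and Gzma is at 86.9 to 90.6% in grey.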

How the data were processed

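Sorted γδ IELs were measured by bulk RNA-seq in 22 pooled libraries and by 5′ single-cell RNA-seq in 6. For the bulk table the authors mapped reads to a customized mouse genome with OmicSoft ArrayStudio and deposited RSEM expected counts per gene (GRCm38 in the submitters' processing notes). Of the values 4.91% were not whole, and they were rounded. The labels and the paper's methods name different library kits and ages for these libraries. For single cells the authors deposited UMI counts per gene and barcode. Levels in epithelial cells came from a separate table of 7-week-old mice.

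Members and gene lists were chosen with earlier results of these data known. Genes named were the 10 members, Btnl2, genes of the marker and pathway lists, whether called or not, and the 5 highest-ranked partners of a member. Genes that reached 10 counts in a number of libraries equal to the smaller group entered edgeR 4.0.16 (quasi-likelihood test, TMM, Benjamini-Hochberg adjustment over all genes tested, called below 0.05 with a change above 1.5-fold), fitted on the 2 groups compared or, for interactions, on all 22 libraries. Alternatives were DESeq2 1.42.0, limma-voom 3.58.1 with quality weights, other filters and normalizations, covariates and leaving out libraries. Libraries of 1 group were separate pools, and each pair of them differed beyond sampling noise (chi-square per degree of freedom 14.9 or more). The paper's text treats segments as taken from the same mice, but no label links the libraries of 1 pool across segments, so p-values treat them as separate. Correlations across libraries used 100000 permutations within groups. Scripts were tested on simulated data.

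Barcodes were kept from 500 detected genes upward and up to 10% of UMIs from mitochondrial genes. Co-detection used cells thinned to 2905 UMIs. Intervals of levels and of pooled pair counts are 95% Poisson intervals. Those of a ratio between 2 single-cell libraries are 95% exact binomial intervals on the 2 UMI counts. All cover counting error only. Promoters came from RefSeq, for 8 of the 10 members. In the γδ IEL file, 1 column matched no sample and was not used. A gene of the TCF-1 and LEF-1 list is not reported here. R 4.3.3, Python 3.11.15, NumPy 2.4.6, SciPy 1.17.1, pandas 2.3.3 and matplotlib 3.10.9 were used.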

Additional observations from a re-analysis of the deposited data

Results flagged for a closer look

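Of 40 combinations of a factor with a group of 4 bulk libraries, 2 held a library far from the others of its group, where chance gives about 1 in 20. Eomes was at 2.92 CPM in WT ileum pool 1 and at 2.13 to 2.26 CPM in the other 3 pools. Tbx21 was at 205 CPM in KO jejunum pool 2 and at 129 to 139 CPM in the other 3 pools. KO jejunum pool 2 is also the library with the least epithelial signal, at a mean of 3.84 log2 CPM over the epithelial markers where the other libraries had 5.92 to 8.88, and the part of that signal in its Tbx21 level was not tested.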

How the results depend on the processing

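Of 2100 values of single factors under other settings, 2055 kept their direction where called and their side of the threshold, 28 lost their call, 14 gained one and 3 reversed. The 3 were Tcf7 (log2 0.12) and Tbx21 (0.21) between WT ileum and jejunum with the mitochondrial rRNA covariate, and Ikzf2 (-1.17) between KO ileum and duodenum with the epithelial covariate. With the mitochondrial rRNA covariate, chosen after seeing the data, the number of factors called went from 3 to 0 between WT jejunum and duodenum, from 4 to 0 between WT ileum and jejunum and from 0 to 2 between KO ileum and duodenum (Lef1 and Tcf7). Between WT ileum and jejunum the number was 2 with all 22 libraries in one fit, 1 with the epithelial covariate, and 1 to 4 when 1 library was left out (1 without WT ileum pool 2, 2 without WT ileum pool 3, WT jejunum pool 3 or WT jejunum pool 4). Between KO ileum and duodenum it was 1 by DESeq2, 1 with all 22 libraries (Lef1 in both), 2 by limma-voom, 2 with the epithelial covariate and 0 to 1 when 1 library was left out (Tcf7 without KO ileum pool 2). DESeq2 called 1 factor between KO jejunum and duodenum, and limma-voom called 2 between the genotypes in the ileum. The cause was not tested in these cases.

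Counts over all genes differed more between tools. From edgeR to DESeq2 to limma-voom they were 0, 221 and 1207 for genotype in the ileum, 271, 502 and 544 for WT ileum and duodenum, 63, 468 and 672 for KO ileum and duodenum, and 0, 93 and 0 for KO jejunum and duodenum. For KO ileum and duodenum the epithelial covariate gave 1277 and the mitochondrial rRNA covariate 1217. For WT ileum and jejunum, 2748 by edgeR became 4215 by limma-voom and 1440 with all 22 libraries. With the mitochondrial rRNA covariate both WT jejunal comparisons gave 0.

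In single cells, the WT ileum to duodenum ratio of Tcf7 was 1.21 in place of 1.43 in cells with a Cd3 UMI and no UMI of other cell types. Pairs above expectation in all 6 libraries numbered 5 of 32, and 3 of 23 in those cells, 16 of 36 without thinning and 8 of 33 with thinning to 3912 UMIs. No paired analysis was possible because the labels give each bulk library a number of its own and link none across segments. With 1 single-cell library a group, differences between those libraries have no replicate check, and Eomes and Zbtb16 rest on too few UMIs for pairs with the rarer factors.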
